A study of Solanum lycopersicum with 24 samples.

Results

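The 7 genes described here are regulators of salicylate defence and 2 copies of its best-known output gene, taken by gene number from the 34075 genes counted in each library. No measured value entered this rule, but earlier results of these data were known when the genes were chosen. They are EDS1 (Solyc06g071280), PAD4 (Solyc02g032850), NPR1 (Solyc07g040690), ICS1 (Solyc06g071030), WRKY70 (Solyc03g095770) and the PR1 copies Solyc09g007010 and Solyc09g007020. By their gene numbers, EDS1 and ICS1 lie on chromosome 6, PAD4 on chromosome 2, NPR1 on chromosome 7, WRKY70 on chromosome 3 and both PR1 copies on chromosome 9. All 7 gene numbers were present in all 24 libraries. The pairing of names with gene numbers was taken as given, since the count tables carry gene numbers only.

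Salicylate is a plant hormone of defence against biotrophic pathogens. Salicylate is made largely through isochorismate in Arabidopsis, and isochorismate synthase (ICS1) catalyses the committed step of that route. EDS1 and PAD4 are lipase-like proteins that form a complex downstream of intracellular immune receptors and promote salicylate accumulation. NPR1 binds salicylate and acts as a coactivator of defence genes, WRKY70 is a transcription factor downstream of it, and PR1 encodes a secreted protein whose transcript serves as the usual marker of the active pathway. High temperature is known to weaken this branch of immunity in Arabidopsis.

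RNA-seq libraries were made from excised leaves of 6-week-old tomato (Solanum lycopersicum cv. Moneymaker) plants of 4 genotypes: WT, rs2z35, rs2z36 and the double mutant rs2z35 36. Leaves were kept for 1 h at 25°C (control) or 40°C (HS, heat stress), on wet paper in closed dishes, with 3 libraries per genotype and condition. The single mutants are homozygous CRISPR-Cas9 lines with a 1-nucleotide insertion or deletion in RS2Z35 or RS2Z36, which encode plant-specific SR splicing factors, and the double mutant came from crossing them, so each genotype stands for 1 line. Several leaves were pooled for each extraction.

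Total counts ranged from 18692423 to 22517273 per control library and from 16853134 to 23929283 per HS library. All 24 replicate pairs differed by more than sampling noise: chi-square divided by its degrees of freedom was 4.746 to 28.38. RS2Z35 was at 193 CPM ± 10.9 (SD, n = 3) in WT control, 32.7 ± 1.15 in rs2z35 control and 31.3 ± 0.859 in rs2z35 36 control, which follows the labels. RS2Z36 was at 57.6 CPM ± 5.68 in WT control, 38.8 ± 5.38 in rs2z36 control and 34.2 ± 0.614 in rs2z35 36 control, lower than in WT with no overlap. Of the leaf markers, 2 with an annotation gave a summed level of 3143 to 6144 CPM in every library. Of the glandular trichome genes, 3 summed to 0.2082 to 1.056 CPM in the rs2z36 libraries, 10.93 to 33.6 CPM in those of rs2z35 36 and 41.63 to 76.8 CPM in those of WT and rs2z35. The trichome difference accompanies every comparison of rs2z36 and rs2z35 36 with WT below, and its part in them was not tested. In pooled leaves, fewer cells of a type and less RNA per cell cannot be told apart.

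Levels are given as CPM, read counts over the library's scaled total, scaled by TMM over the 24 libraries, so that they compare a gene between libraries and not genes with each other. Of the 7 genes, 5 were expressed in every library, and the PR1 copies were at or near 0. Over the 12 control libraries, EDS1 ranged from 23.35 to 39.58 CPM (median 32.48), PAD4 from 14.95 to 23.96 (median 18.86), NPR1 from 15.02 to 21.17 (median 18.19), ICS1 from 5.012 to 7.669 (median 6.601) and WRKY70 from 9.841 to 22.64 (median 14.96). Over the 12 HS libraries, EDS1 ranged from 23.79 to 36.55 CPM (median 31.51), PAD4 from 7.969 to 18.24 (median 13.46), NPR1 from 17.4 to 26.02 (median 22.75), ICS1 from 7.571 to 12.11 (median 9.127) and WRKY70 from 23.14 to 52.58 (median 40.13). WRKY70 alone among the 5 had no overlap between conditions over the 4 genotypes, although ICS1 came close to it, with its lowest HS library at 7.571 CPM and its highest control library at 7.669 CPM. The share of all genes with such a separation over the 24 libraries is not given here. Within single genotypes, 30.2% to 32.5% of all tested genes were higher in HS without overlap, so WRKY70 is not shown to be unusual by this.

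**Figure D1:**
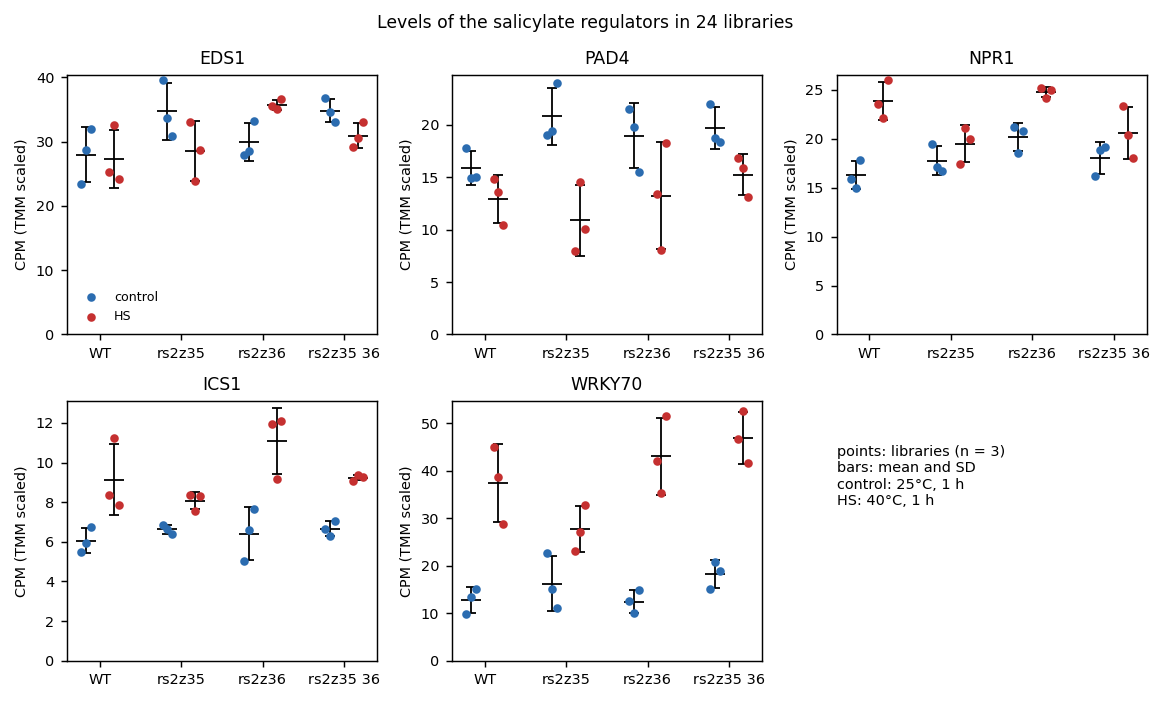
CPM (TMM scaled, linear axis from 0) of the 5 expressed genes in each of 24 libraries, by genotype on the x axis, with control in blue and HS in red. Points are libraries and black bars the mean and SD (n = 3). For WRKY70 the 12 HS libraries lie between 23.14 and 52.58 CPM and the 12 control libraries between 9.841 and 22.64 CPM, while the conditions overlap for EDS1.

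The first comparison asked how the salicylate genes responded to 1 h of HS within each genotype. WRKY70 was the only one of the 7 called, and it rose in WT, rs2z36 and rs2z35 36. ICS1 had an adjusted p below 0.01 in WT, rs2z36 and rs2z35 36, NPR1 in WT and PAD4 in rs2z35, with changes under the size threshold, and EDS1 in no genotype. A gene was called where its log2FC exceeded 1 in either direction and its adjusted p lay below 0.01, from edgeR's quasi-likelihood test on the 6 libraries of a genotype with Benjamini-Hochberg adjustment over all genes tested. By this rule 1 of 6 tested members was called in WT, where 25.1% of all tested genes were called, 0 of 5 in rs2z35 (22.8%), 1 of 5 in rs2z36 (22.7%) and 1 of 5 in rs2z35 36 (25.1%). In rs2z35, 3 of the 5 had an unadjusted p under 0.05, as had 60.6% of all tested genes, and DESeq2 also called 0. The share of members called is thus near or below that of the whole transcriptome in every genotype. The median log2FC of the members tested was 0.27 in WT, 0.14 in rs2z35, 0.30 in rs2z36 and 0.20 in rs2z35 36, against a median of -0.03 over all genes tested in WT and in rs2z35.

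WRKY70, the transcription factor, was at 9.841, 13.45 and 15.18 CPM in WT control and at 45.02, 38.7 and 28.69 CPM in WT HS. In rs2z36 it was at 12.66, 9.952 and 14.81 CPM in control and at 42.08, 35.33 and 51.61 CPM in HS. In rs2z35 36 it was at 15.1, 20.88 and 18.84 CPM in control and at 46.68, 52.58 and 41.56 CPM in HS. In these genotypes each HS library exceeded each control library by a wide gap. The log2FC was 1.56 (SE 0.188) in WT with an edgeR adjusted p of 7.91e-05, 1.79 (SE 0.181) in rs2z36 with an adjusted p of 5.81e-05, and 1.38 (SE 0.134) in rs2z35 36 with an adjusted p of 5.39e-06, which correspond to 2.94-fold, 3.45-fold and 2.60-fold higher levels.

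In rs2z35, WRKY70 was at 22.64, 15.13 and 11.02 CPM in control and at 23.14, 27.2 and 32.71 CPM in HS. The groups did not overlap, but control replicate 1 reached nearly the level of HS replicate 1, and the log2FC of 0.78 (SE 0.244, edgeR adjusted p = 0.025) passed neither threshold. Without rs2z35 control replicate 1 the log2FC was 1.09 with an adjusted p of 0.00277, and the gene was then called. That was the only omission of a library with a call, and in every other one both thresholds were missed. Over the omissions the log2FC ranged from 0.562, without rs2z35 control replicate 3, to 1.091. WRKY70 was thus higher in HS with no overlap in all 4 genotypes, a pattern shown by 32.5%, 31%, 30.2% and 31.1% of all tested genes in WT, rs2z35, rs2z36 and rs2z35 36.

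ICS1, the synthesis gene, was at 5.488, 5.923 and 6.736 CPM in WT control and at 8.34, 11.22 and 7.873 CPM in WT HS, with no overlap. Its log2FC was 0.61 (SE 0.163, edgeR adjusted p = 0.00953) in WT, 0.79 (SE 0.185, adjusted p = 0.0067) in rs2z36 and 0.49 (SE 0.127, adjusted p = 0.00656) in rs2z35 36, which passed the p threshold and not that on size. The p threshold was missed with the replicate number as a block in rs2z36 (adjusted p = 0.0106) and rs2z35 36 (adjusted p = 0.0116), and with DESeq2 in rs2z35 36 (adjusted p = 0.014). In rs2z35 the log2FC was 0.29 (adjusted p = 0.0644). The HS libraries of rs2z35 36 lay within 9.076 to 9.353 CPM, against 6.304 to 7.053 CPM in control, so that the difference was well outside the spread in that genotype. In each of the 4 genotypes the lowest HS library of ICS1 was above the highest control library. The same held for 32.5%, 31%, 30.2% and 31.1% of all tested genes in WT, rs2z35, rs2z36 and rs2z35 36.

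NPR1, the salicylate receptor, was at 15.94, 15.02 and 17.85 CPM in WT control and at 23.53, 22.15 and 26.02 CPM in WT HS. The log2FC in WT was 0.56 (SE 0.0987, edgeR adjusted p = 0.000844), so that the p threshold was passed and the size threshold was not. In rs2z36, where the conditions did not overlap either, NPR1 averaged 20.2 CPM ± 1.42 (SD, n = 3) in control and 24.8 ± 0.525 in HS, a log2FC of 0.30 (adjusted p = 0.0288). Higher levels without overlap were shown by 32.5% of all tested genes in WT and by 30.2% in rs2z36. In rs2z35 and rs2z35 36 the conditions overlapped, with log2FC values of 0.14 (adjusted p = 0.3) and 0.20 (adjusted p = 0.176).

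PAD4, the partner of EDS1, had lower means in HS in every genotype. In rs2z35 it was at 19.04, 19.41 and 23.96 CPM in control and at 7.969, 14.55 and 10.1 CPM in HS, a log2FC of -0.92 (SE 0.205, edgeR adjusted p = 0.00517). This missed the size threshold by little, and without rs2z35 HS replicate 2 the log2FC was -1.18 (adjusted p = 0.000721) and the gene was called. That was the only omission of a library with a call. In most of the others the p threshold was missed as well, and without rs2z35 HS replicate 1 the log2FC was -0.724. In WT, PAD4 was at 17.79, 14.95 and 15.01 CPM in control and at 14.78, 13.56 and 10.41 CPM in HS, a log2FC of -0.29 (adjusted p = 0.0919). In rs2z36 the log2FC was -0.52 (adjusted p = 0.123), and in rs2z35 36 it was -0.35 (adjusted p = 0.0322). The HS libraries of rs2z36 spread widely for this gene, at 13.36, 8.056 and 18.24 CPM.

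EDS1 was at 23.35, 28.72 and 31.89 CPM in WT control and at 25.22, 32.52 and 24.1 CPM in WT HS, with a log2FC of -0.03 (SE 0.146, 95% confidence interval -0.36 to 0.30). The WT libraries of both conditions interleaved. In rs2z35 the log2FC was -0.27 (edgeR adjusted p = 0.134). In rs2z36 the HS libraries, at 35.13 to 36.55 CPM, lay above the control libraries, at 27.91 to 33.25 CPM, with a log2FC of 0.26 (adjusted p = 0.0508). Such a separation was shown by 30.2% of all tested genes in that genotype. In rs2z35 36 the HS libraries, at 29.21 to 33.04 CPM, lay just below the control libraries, at 33.07 to 36.76 CPM, with a log2FC of -0.15 (adjusted p = 0.195). In that genotype 44% of all tested genes had a log2FC at or below this value. The share of all genes lower without overlap is not given here.

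**Figure D2:**
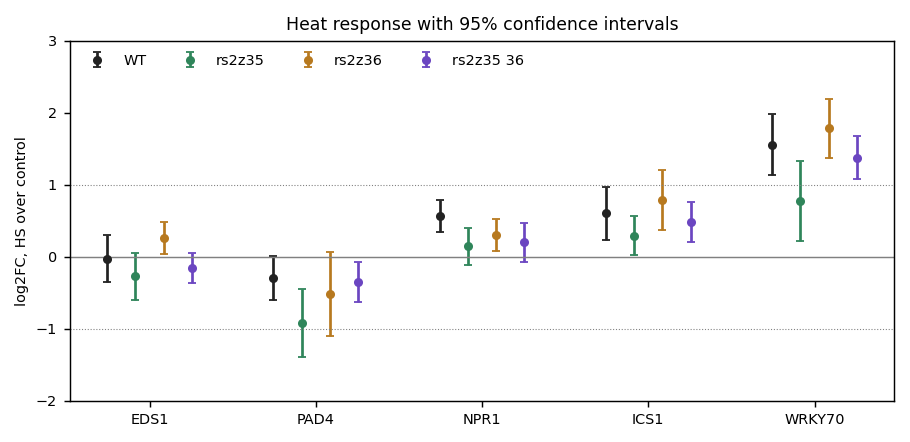
Log2FC of HS over control for the 5 expressed genes (x axis) in 4 genotypes (colours), with 95% confidence intervals from edgeR on 6 libraries per genotype; dotted lines mark a log2FC of 1 in either direction. The intervals of WRKY70 in WT, rs2z36 and rs2z35 36 lie wholly above 1, and that in rs2z35 runs from 0.218 to 1.333.

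A fit of all 24 libraries gave the heat response averaged over the 4 genotypes. It was 1.37 (SE 0.115, edgeR adjusted p = 3.21e-10) for WRKY70, 0.53 (SE 0.074, adjusted p = 9.75e-07) for ICS1, 0.29 (SE 0.0528, adjusted p = 3e-05) for NPR1, -0.53 (SE 0.111, adjusted p = 0.000182) for PAD4 and -0.06 (SE 0.0656, adjusted p = 0.442) for EDS1 on the log2 scale. WRKY70 was the only member called among 6 tested, where 27.9% of all genes were called. This fit was added after the data were seen.

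The direction of the smaller changes depends on how libraries are scaled. TMM factors were 0.74 to 0.85 in HS and 1.24 to 1.33 in control. With total counts in place of TMM the median log2FC of all tested genes moved from -0.03 to -0.79 in WT. On that scale NPR1 in WT turned to -0.20, ICS1 in WT to -0.15, and EDS1 in rs2z36 to -0.43, whereas WRKY70 stayed positive in WT (0.80), rs2z35 (0.11), rs2z36 (1.09) and rs2z35 36 (0.64) and PAD4 stayed negative. EDS1 was also lower in WT (-0.78, edgeR adjusted p = 0.00119), rs2z35 (-0.94, 0.00057) and rs2z35 36 (-0.88, 2.09e-05), as in rs2z36 (0.00747). Averaged over the genotypes, NPR1 was lower too (-0.41, adjusted p = 4.81e-08). PAD4 was then called lower in all 4 genotypes, at -1.05, -1.61, -1.22 and -1.09, and WRKY70 was called in rs2z36 only.

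Ratios within a library do not depend on library size, and EDS1 was taken as the denominator after the data were seen. EDS1 was nearly level under TMM scaling only (averaged log2FC -0.06, against -0.76 with total counts). A ratio therefore cannot tell a rise of its numerator from a fall of EDS1, and does not settle which scaling holds. The log2 ratio of WRKY70 to EDS1 counts ranged from -1.52 to -0.73 in the 12 control libraries and from -0.52 to 0.84 in the 12 HS libraries, so the conditions did not overlap. The mean difference was 1.44 (exact permutation of conditions within genotypes, two-sided, p = 1.25e-05, the smallest the 160000 permutations can give), and it was 1.58 in WT, 1.10 in rs2z35, 1.52 in rs2z36 and 1.54 in rs2z35 36. The ratio of ICS1 to EDS1 was likewise separate, at -2.53 to -2.09 in control and -1.99 to -1.54 in HS, with a mean difference of 0.59 (p = 1.25e-05 by the same exact test). NPR1 against EDS1 was higher by 0.35 (exact permutation p = 0.00232), with overlap, and the difference was 0.59 in WT, 0.42 in rs2z35, 0.04 in rs2z36 and 0.35 in rs2z35 36. PAD4 against EDS1 was lower, also with overlap, with a difference of -0.50 (exact permutation p = 0.00595), made up of -0.27 in WT, -0.69 in rs2z35, -0.84 in rs2z36 and -0.20 in rs2z35 36. Relative to EDS1, ICS1 and WRKY70 transcripts were more abundant in HS in every genotype, while the NPR1 ratio in rs2z36 was nearly the same in both conditions. These are 4 relations, and all 4 had p below 0.01, but they share the EDS1 counts and are not independent of each other.

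**Figure D3:**
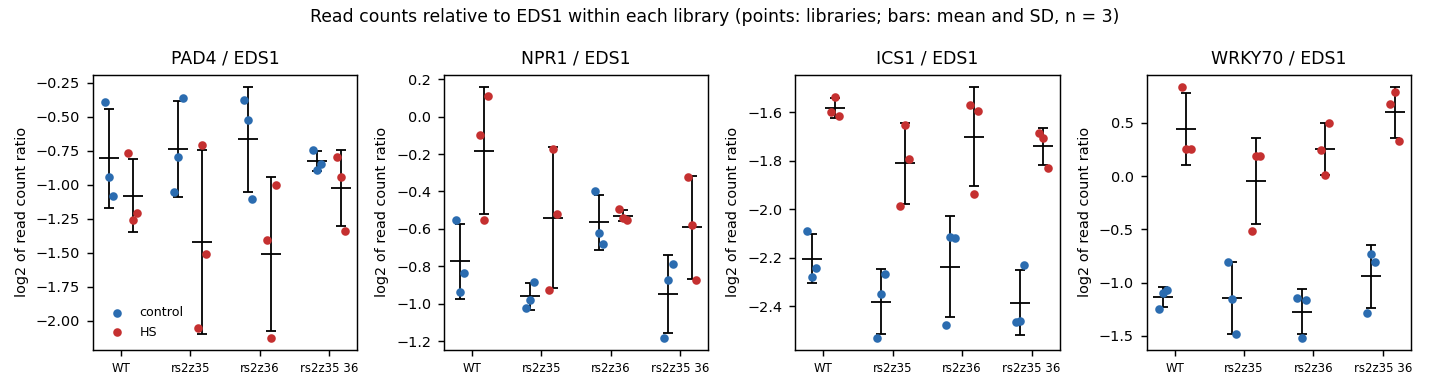
Log2 ratio of the read counts of PAD4, NPR1, ICS1 and WRKY70 to those of EDS1 within each library, by genotype, with control in blue and HS in red; points are libraries and bars the mean and SD (n = 3). The axes differ between panels. Control and HS are separate over all 24 libraries for ICS1 (up to -2.09 against at least -1.99) and WRKY70 (up to -0.73 against at least -0.52).

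PR1 was scarcely detectable. Copy Solyc09g007010 had 3, 1 and 7 reads in WT control, 1, 1 and 4 in rs2z35 control, 2, 6 and 0 in rs2z36 control and 9, 0 and 0 in rs2z35 36 control. In HS it had 1, 0 and 0 reads in WT, 2, 0 and 0 in rs2z35, and 0 in every library of rs2z36 and rs2z35 36. That is 34 reads over 12 control libraries, of which 9 had any, against 3 reads over 12 HS libraries, of which 2 had any. Pooled over libraries, control reached 0.1105 CPM and HS reached 0.01703 CPM, a ratio of 0.154 (95% exact binomial interval 0.0303 to 0.49, which covers counting error only). The CPM difference between conditions gave p = 0.016 in a two-sided exact permutation within genotypes, a pooling chosen after the data were seen. In WT, the only genotype with enough reads for a test of its heat response, the log2FC was -2.32 (SE 1.31, edgeR adjusted p = 0.153). It rests on 1 HS read: without WT HS replicate 1, which holds that read, the fitted value was -4.65, and without WT HS replicate 3 it was -1.84. Averaged over the genotypes the log2FC was -2.93 (SE 1.11, adjusted p = 0.0235), which missed the p threshold. A count of 0 allows up to 3 reads, which is 0.1046 to 0.1296 CPM in control libraries and 0.1622 to 0.2358 CPM in HS libraries, so that most libraries of either condition lay at or under what this depth resolves.

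Copy Solyc09g007020 had 1 read in all 24 libraries, in rs2z36 control replicate 2, and was never tested. Reads that fit both copies equally well may have been left out by the counting, whose settings for such reads are not given in the sources used here, so the levels of the 2 copies are uncertain. No genotype or condition showed the PR1 transcript at a level comparable with the regulators in reads counted: the largest count was 9, against 115 for the lowest count of ICS1.

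**Figure D4:**
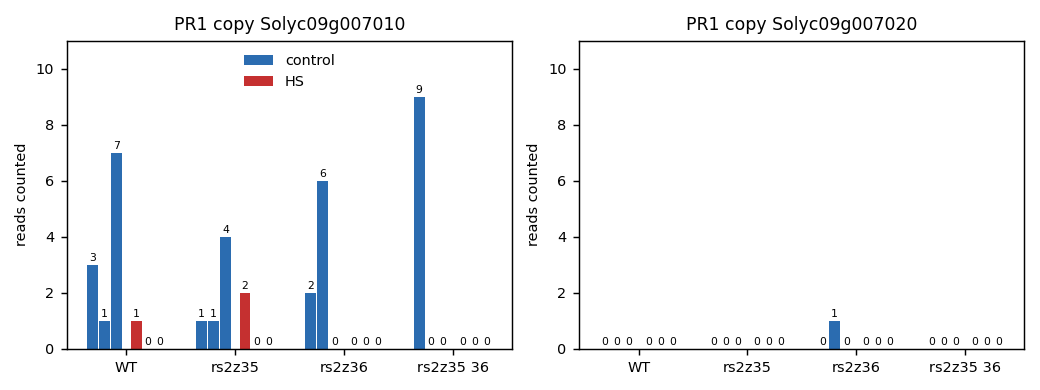
Reads counted for the PR1 copies Solyc09g007010 (left) and Solyc09g007020 (right) in each of 24 libraries, by genotype, with control in blue and HS in red; the number is printed over each bar, and both axes start at 0. The first copy has 34 reads in the 12 control libraries and 3 in the 12 HS libraries, and the second has 1 read in all.

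Other genes of the pathway were taken from a list of 36 gene numbers, of which 31 were in the files. Only 4 carried an annotation of the expected class in the paper's list of genes differentially expressed between control and HS in WT. That requirement already favours genes that respond to heat in WT, so the shares of all genes given below are no fair measure for them. Of these 4, the number called lower in HS was 3 in WT, 3 in rs2z35, 2 in rs2z36 and 3 in rs2z35 36, where 11.6%, 11.1%, 10.9% and 12% of all genes were called lower, and 0 were called higher. PR4 (Solyc01g097240), a chitin-binding defence protein, fell from 7.07 CPM ± 0.748 to 2.32 ± 0.637 in WT (SD, n = 3), with log2FC values of -1.60, -1.72, -2.45 and -1.90 in WT, rs2z35, rs2z36 and rs2z35 36. A glucan endo-1,3-beta-glucosidase (Solyc01g008620), of the enzyme class that contains the PR2 proteins, fell from 7.03 CPM ± 0.499 to 2.20 ± 0.746 in WT, with log2FC values of -1.66, -1.79, -1.80 and -2.02. A PR1-like gene (Solyc01g106620) fell from 2.26 CPM ± 0.303 to 0.645 ± 0.145 in WT, with log2FC values of -1.79, -1.59 and -1.53 in WT, rs2z35 and rs2z35 36. In rs2z36 its log2FC of -1.77 had an edgeR adjusted p of 0.0235. The beta-1,3-glucanase Solyc01g060020 averaged 0.2504 CPM in control and 0.02282 CPM in HS of WT. Its log2FC was -3.14, -2.76 and -2.31 in WT, rs2z35 and rs2z35 36 but -0.61 in rs2z36 (edgeR adjusted p = 0.6), and it was called in no genotype alone. Averaged over the genotypes it was -2.21 (adjusted p = 0.00106), which was called. These 4 genes are not a test of the pathway, since the way they were kept favours a heat response.

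The next comparison asked whether loss of RS2Z proteins altered the salicylate genes under either condition. None of the members was called in any mutant. Of the 6 members tested in control, 0 were called in rs2z35, rs2z36 and rs2z35 36, where 0.051%, 0.187% and 0.174% of all genes were called, and of the 5 tested in HS, 0 were called, where the shares were 0.0302%, 0.142% and 0.19%. Unadjusted p under 0.05 was reached by 2, 1 and 2 members in control and by 2, 1 and 0 in HS, and DESeq2 also called 0 in all 6 comparisons. Over all genes, an unadjusted p under 0.05 was reached by 10.5%, 14.1% and 17% in control and by 8.56%, 15.2% and 14.2% in HS.

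In control, EDS1 averaged 28.0 CPM ± 4.32 in WT, 34.7 ± 4.47 in rs2z35, 29.9 ± 2.93 in rs2z36 and 34.8 ± 1.86 in rs2z35 36 (SD, n = 3 each). The log2FC against WT was 0.31 in rs2z35 (95% confidence interval 0.05 to 0.58, edgeR adjusted p = 0.373) and 0.31 in rs2z35 36 (0.05 to 0.58, adjusted p = 0.21). PAD4 averaged 15.9 CPM ± 1.62 in WT, 20.8 ± 2.74 in rs2z35, 18.9 ± 3.12 in rs2z36 and 19.7 ± 1.97 in rs2z35 36. Its log2FC in rs2z35 was 0.39 (0.10 to 0.68, adjusted p = 0.322). The control means of both EDS1 and PAD4 were higher in all 3 mutants than in WT, but no difference passed the adjusted test, and the 3 comparisons share the WT libraries. The same held for NPR1 (16.3 CPM in WT against 17.8, 20.2 and 18.1 in rs2z35, rs2z36 and rs2z35 36) and ICS1 (6.05 against 6.63, 6.42 and 6.67). NPR1 in control was at 18.53 to 21.17 CPM in rs2z36 and at 15.02 to 17.85 CPM in WT (log2FC 0.31, adjusted p = 0.211). A log2FC at least as high was shown by 14.8% of all genes tested in that comparison. WRKY70 averaged 12.8 CPM ± 2.72 in WT, 16.3 ± 5.89 in rs2z35, 12.5 ± 2.44 in rs2z36 and 18.3 ± 2.93 in rs2z35 36, with a log2FC of 0.51 in rs2z35 36 (-0.01 to 1.03, adjusted p = 0.305).

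In HS, EDS1 in rs2z36 was at 35.48, 35.13 and 36.55 CPM, above the WT libraries at 25.22, 32.52 and 24.1 CPM, with a log2FC of 0.40 (95% confidence interval 0.12 to 0.69, edgeR adjusted p = 0.165). A log2FC at least as high was shown by 10.8% of all genes tested in that comparison. NPR1 in rs2z35 was at 17.4, 21.09 and 20.02 CPM, below the WT libraries at 23.53, 22.15 and 26.02 CPM, with a log2FC of -0.28 (-0.50 to -0.05, adjusted p = 0.489). A log2FC at least as low was shown by 14.3% of all genes tested in that comparison. The shares of all genes that did not overlap between mutant and WT are not given here. WRKY70 averaged 37.5 CPM ± 8.24 in WT, 27.7 ± 4.80 in rs2z35, 43.0 ± 8.18 in rs2z36 and 46.9 ± 5.52 in rs2z35 36, and its log2FC in rs2z35 was -0.42 (-0.82 to -0.02, adjusted p = 0.546). Over the 6 comparisons the outermost interval bounds were -0.50 and 0.53 for NPR1, -0.21 and 0.69 for EDS1, -0.49 and 0.61 for ICS1, -0.81 and 0.83 for PAD4 and -0.82 and 1.03 for WRKY70.

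**Figure D5:**
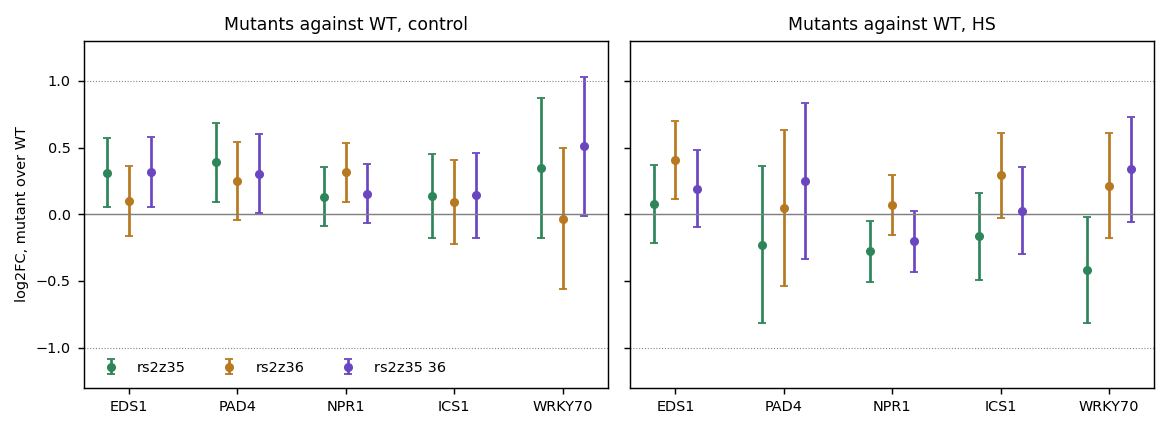
Log2FC of each mutant (colours) over WT for the 5 expressed genes in control (left) and HS (right), with 95% confidence intervals from edgeR on the 12 libraries of a condition; dotted lines mark a log2FC of 1 in either direction. No point lies beyond a dotted line, and the point with the largest size is WRKY70 in rs2z35 36 control, at 0.51.

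Whether the heat response itself differed between mutant and WT was tested as an interaction over all 24 libraries. None of the 6 members tested was called in rs2z35, rs2z36 or rs2z35 36, where 0.0122%, 0.106% and 0.0407% of all genes were called, and an unadjusted p under 0.05 was reached by 2, 0 and 1 members, and by 7.4%, 8.75% and 8.55% of all genes. DESeq2 also called 0. The response of WRKY70 in rs2z35 was smaller than in WT by a log2 difference of -0.78 (95% confidence interval -1.45 to -0.11, edgeR adjusted p = 0.594). Without rs2z35 control replicate 1, the library with the highest control level of WRKY70, the difference was -0.47, and over all libraries left out in turn it ranged from -0.996 to -0.466. For the other mutants the WRKY70 difference was 0.23 (-0.43 to 0.90) in rs2z36 and -0.19 (-0.85 to 0.48) in rs2z35 36. The response of NPR1 was smaller than in WT in rs2z35, at -0.42 (edgeR adjusted p = 0.514), and in rs2z35 36, at -0.37 (adjusted p = 0.472). The absence of a call for WRKY70 within rs2z35 is therefore not shown to be a difference from WT after adjustment.

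Ordered by mean level over the 8 groups, WRKY70 was highest in rs2z35 36 HS, followed by HS of rs2z36, WT and rs2z35, and then by control of rs2z35 36, rs2z35, WT and rs2z36. The ranges of neighbours in this order overlapped except between rs2z35 HS (23.14 to 32.71 CPM) and rs2z35 36 control (15.1 to 20.88 CPM). ICS1 had the same kind of order, with rs2z36 HS at the top and WT control at the bottom, and the only neighbours without overlap were rs2z35 HS (7.571 to 8.351 CPM) and rs2z35 36 control (6.304 to 7.053 CPM). For PAD4 the 4 control groups came before the 4 HS groups, and every pair of neighbours overlapped. NPR1 went from rs2z36 HS to WT control with rs2z36 control above rs2z35 HS, and EDS1 went from rs2z36 HS to WT HS with the conditions mixed, all neighbours overlapping.

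Among libraries of a condition, some members varied together. Correlations of log2 CPM were computed for 10 pairs in each condition (n = 12 libraries, 20 relations, permutation tests). In control, EDS1 and WRKY70 had r = 0.823 (permutation p = 0.00088, adjusted p = 0.0176) and rho = 0.825 (adjusted p = 0.017), and r was 0.686 without the 2 libraries farthest from the median of EDS1 and 0.772 within genotypes. In HS the same pair had r = 0.333 (permutation p = 0.287, adjusted p = 0.538). In HS, EDS1 and ICS1 had r = 0.783 (permutation p = 0.00322, adjusted p = 0.0322) and rho = 0.839 (adjusted p = 0.017), with r = 0.674 without the 2 libraries farthest from the median of EDS1 and 0.692 within genotypes. PAD4 and WRKY70 had r = 0.742 in HS (permutation p = 0.00614, adjusted p = 0.0409) and rho = 0.783 (adjusted p = 0.0234), with r = 0.711 without the 2 libraries farthest from the median of PAD4 and 0.731 within genotypes. PAD4 and WRKY70 thus varied together among HS libraries, although the mean of PAD4 was lower and that of WRKY70 higher in HS. In control this pair had r = -0.17 (permutation p = 0.591, adjusted p = 0.739), with r = -0.771 within genotypes, and the difference between conditions was not tested. The 3 relations named passed the adjusted test, and the other 17 did not. HS counts carry a batch adjustment by the authors, whose effect on the HS permutation p-values was not tested.

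The 2 genes whose log2 CPM over the 24 libraries was most like that of each expressed member were found among 18490 genes with a mean of at least 1 CPM, as a description of these libraries, which share the heat contrast. For WRKY70 they were Solyc07g041750 (r = 0.976) and Solyc05g009840 (r = 0.954), and for PAD4 Solyc06g006080 (r = 0.901) and Solyc05g013180 (r = 0.898). For ICS1 they were Solyc01g100020, annotated as a phospholipase (r = 0.896), and Solyc03g095760 (r = 0.895), whose number is next to that of WRKY70. For NPR1 they were Solyc11g005730 (r = 0.872) and Solyc02g065550, annotated as ACI19 (r = 0.858). EDS1, the gene with the least response under TMM scaling, had the least similar partners, Solyc09g075030 (r = 0.695) and Solyc09g057960 (r = 0.685).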

How the data were processed

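The deposited tables hold raw-scale read counts per gene for each library. The authors made polyA-selected, non-directional paired-end libraries, mapped reads to SL4.0 with ITAG4.0 by STAR, and counted reads per gene with htseq-count (HTSeq 0.9.1). ComBat-Seq was then applied by them to HS libraries, for a batch the paper does not name, and no such step is stated for control. Each HS against control value therefore sets adjusted against unadjusted counts, and its effect was not tested. The HS mutant comparisons and HS correlations rest on the spread of adjusted counts, and the effect on their p-values was not tested either. The ratio of mean squares of replicate number over the remainder had a median of 0.845 in control and 0.00874 in HS over 18495 genes.

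Tests on these counts used edgeR 4.0.16 (R 4.3.3), with TMM scaling, quasi-likelihood F tests and a minimum of 10 reads summed over a fit's libraries. P-values were adjusted by Benjamini-Hochberg across every gene in the fit. Each heat response used 6 libraries, each mutant comparison 12, and each interaction 24. Log2 CPM used a prior count of 2. Groups and replicate numbers came from the sample labels. Libraries are stated to be biological replicates of pooled leaves. Alternatives were DESeq2 1.42.0, its size factors, total counts, no filter, filterByExpr, the replicate number as a block, other sets of libraries, and leaving out each library. The members and the lists were chosen with earlier results of these data known. All members are described whatever their values. An identifier on the pathway list was kept only where its class was given in the paper's list of genes differentially expressed between control and HS in WT. The other identifiers were not analysed here. The steps were tested on simulated data.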

Additional observations from a re-analysis of the deposited data

How the results depend on the processing

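The calls of members were the same with DESeq2, DESeq2's size factors, no filter, filterByExpr and all 24 libraries in a fit. With total counts as library size, the members called went from 0 to 1 in the heat response of rs2z35 and from 1 to 2 in that of rs2z36. With that scaling the heat log2FC changed sign for NPR1 (-0.196 in WT, -0.534 in rs2z35, -0.388 in rs2z36, -0.531 in rs2z35 36 and -0.412 averaged), for ICS1 (-0.15 in WT, -0.382 in rs2z35, -0.24 in rs2z35 36 and -0.171 averaged) and for EDS1 in rs2z36 (-0.429). PR1 copy Solyc09g007010 was then called lower on average (-3.37, edgeR adjusted p = 0.00453). The shift of the all-gene median, to between -0.788 and -0.703, comes from the scaling itself, and the share of called genes that were higher fell from 53.7%, 51.3%, 52% and 52.1% to 16.4%, 17%, 17.5% and 17.4%.

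Libraries were not treated as paired, since the labels tie replicate numbers to no shared batch and deviations of same-numbered control libraries had correlations of -0.405 to 0.502. The HS values, -0.581 to -0.026, bear little on this, because replicate numbers hardly differ in the HS tables as deposited. With the replicate number as a block, the members called stayed at 1 in WT, 0 in rs2z35, 1 in rs2z36 and 1 in rs2z35 36 for the heat response, and at 0 in every mutant comparison and interaction. Over all genes, the block gave 9 calls in place of 33 for rs2z36 in HS, 9 in place of 44 for rs2z35 36 in HS, and 0, 13 and 0 in place of 3, 26 and 10 for the interactions.

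Leaving out a library, the members called in the heat response of rs2z35 ranged from 0 to 1. The following log2FC values ranged through 0: EDS1 from -0.172 to 0.079 in the WT heat response; EDS1 from -0.016 to 0.2, ICS1 from -0.06 to 0.239 and WRKY70 from -0.191 to 0.102 in rs2z36 against WT in control; EDS1 from -0.045 to 0.226 and ICS1 from -0.264 to 0.011 in rs2z35 against WT in HS; PAD4 from -0.261 to 0.301 in rs2z36 and ICS1 from -0.071 to 0.206 in rs2z35 36 against WT in HS. In the interactions these were PAD4 from -0.524 to 0.043 in rs2z36, and EDS1 from -0.236 to 0.012, PAD4 from -0.202 to 0.041 and ICS1 from -0.221 to 0.048 in rs2z35 36. None of these was called under any of them.

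Counts of all genes called against WT depended on the tool. In control, DESeq2 called 82, 109 and 147 genes in rs2z35, rs2z36 and rs2z35 36 where edgeR called 12, 44 and 41, a fit of all 24 libraries called 33, 77 and 94, and the 6 libraries compared alone gave 7 and 9 in the single mutants. In HS, DESeq2 called 17, 77 and 107 in place of 7, 33 and 44, and the 6 libraries alone gave 21 in rs2z36 and 27 in rs2z35 36. For the interactions DESeq2 called 41, 45 and 32, and total counts gave 10 in rs2z35 and 16 in rs2z35 36. Without a library, the counts against WT ranged from 3 to 7, 7 to 54 and 16 to 28 in control, and from 4 to 7, 7 to 17 and 17 to 28 in HS. The cause was not tested.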
